A study of Mus musculus with 17 samples.

Results

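The late response of wild-type macrophages to interleukin 6 (IL-6) was read from 5 of the 17 arrays of the series. They were chosen by their labels: 3 arrays of SOCS3+/+ cells after 400 min of IL-6 (replicates 1 to 3) and 2 arrays of SOCS3+/+ cells left unstimulated (replicates 1 and 2). No unstimulated SOCS3+/+ array of replicate 3 was analysed here, so the 400 min array of replicate 3 has no partner of its own number. The cells are bone marrow-derived macrophages of Mus musculus. Per the labels, SOCS3+/+ fetal liver cells had been used to repopulate recipient mice, described as irradiated for the unstimulated array of replicate 1, and macrophages were grown from the donor cells in their marrow. IL-6 was given at 10 ng/ml. The other 12 arrays hold SOCS3+/+ cells after 100 min of IL-6 and SOCS3-/- cells unstimulated and after 100 and 400 min, 3 arrays each, and are used here for the spread and for comparison. The labels give no age, strain or deleted part of the gene, and do not say whether the numbered replicates are separate mice or cultures. The p-values therefore measure the spread between these arrays, which may be technical.

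IL-6 binds its own receptor chain and gp130, which pass the signal through JAK kinases to the transcription factor STAT3. SOCS3 is made in response to STAT3, binds gp130 and the kinases, and ends the signal, a negative feedback loop. In macrophages STAT3 is known for its part in dampening inflammation.

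Levels below are quantile-normalised intensities, a linear brightness per probe set, with the values of the 5 arrays given one by one where a result turns on them. Differences are on the log2 scale, 400 min minus unstimulated, with the standard error (SE) of the limma fit. The median deposited intensity of the 5 arrays lay between 185.2 and 216.95, and the correlation between any pair of them over the tested probe sets, on the log2 scale, between 0.8493 and 0.8963. Along the first principal component of all 17 arrays, the 400 min array of replicate 3 lay at 26.61, whereas the other 4 arrays lay between -19.76 and -2.3. Other replicate 3 arrays lay at 58.08 (SOCS3+/+ 100 min), 45.21 (SOCS3-/- unstimulated), 30.49 (SOCS3-/- 100 min) and 0.89 (SOCS3-/- 400 min). The 12 arrays of replicates 1 and 2 lay between -30.31 and 2.27. Replicate 3 therefore mostly stood apart, also without IL-6. On its SOCS3+/+ 400 min array, IL-6 and this shift cannot be told apart. Calls are given with that array and within replicates 1 and 2 (2 arrays against 2). The macrophage label was borne out by the defining markers: Csf1r, the receptor that keeps macrophages alive, lay at a mean of 30550 unstimulated and 22790 at 400 min, Cd68 at 11960 and 11850, and Adgre1, which encodes F4/80, at 6919 and 5889.

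Of 9871 probe sets tested over 17 arrays, 1 changed at an adjusted p under 0.05, and it rose: Il4ra. It encodes the chain of the interleukin 4 receptor that is shared with the receptor for interleukin 13. Called probe sets made up 0.0101% of those tested. Il4ra lay at 879.9 and 938 on the unstimulated arrays and at 11500, 11500 and 9603 at 400 min, replicates 1 to 3. The groups were far apart, and the 3 stimulated arrays lay close together, replicate 3 included. The rise was 3.58 (SE 0.39), or 11.9-fold, with an adjusted p of 0.00339. Within replicates 1 and 2 it was 3.66 (SE 0.27), or 12.7-fold, with an adjusted p of 0.00774. Leaving out the unstimulated array of replicate 2 took the adjusted p of Il4ra to 0.0989 with the difference at 3.62, and no probe set was then called. Without the unstimulated array of replicate 1, Il4ra was 1 of 16 probe sets called, 15 of them higher. A second Il4ra probe set, much dimmer, lay at 93.53 and 22.69 unstimulated and then 138.8, 95.59 and 116.2 at 400 min (1.33, SE 0.81, adjusted p = 0.875), so it did not pass the test. At 100 min Il4ra on the first probe set had read 8581, 7917 and 4122. The difference from 100 to 400 min was 0.73 (SE 0.35, unadjusted p = 0.0565) and was not called.

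The window around the start of Il4ra, from 250 bases before it to 50 after, is shown because this was the gene called over all arrays. It lies at chr7:125552021-125552320 on the plus strand of GRCm38.p6, from RefSeq, and holds none of the 3 motifs searched for on both strands. These were TTCNNNGAA, a pattern that STAT dimers can bind, its stricter form TTCCNGGAA, and an interferon response pattern of GAAA, any 2 bases and GAAA. The files do not say which transcript or strand of the genome a probe set reads.
Il4ra: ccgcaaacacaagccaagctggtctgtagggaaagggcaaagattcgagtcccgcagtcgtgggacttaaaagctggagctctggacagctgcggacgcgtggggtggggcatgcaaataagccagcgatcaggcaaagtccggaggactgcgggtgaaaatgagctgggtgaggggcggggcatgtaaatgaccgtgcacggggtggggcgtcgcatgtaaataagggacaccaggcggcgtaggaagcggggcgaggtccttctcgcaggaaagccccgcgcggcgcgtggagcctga

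Within replicates 1 and 2, 14 probe sets were called, 0.142% of those tested, 9 higher and 5 lower at 400 min. The 9 that rose were Il4ra, Socs3, Fcgr2b, Muc1, Meg3, Fgl2, Ccl7, Ier3 and Ccr1. The 5 that fell were BC147527, Chrne, Ifit3, Sars2 and Atp7b. On the array of replicate 3, which this fit did not use, 10 of the 14 lay on the same side of the unstimulated mean by more than 1 on the log2 scale, and 4 did not: Fgl2 (0.03), Ccl7 (-0.52), Sars2 (-0.32) and BC147527 (-0.85). That mean comes from the same 2 unstimulated arrays that made the calls, so this count is not an independent check. For 12 of the 14 (not Fgl2 and Ccl7) all 3 stimulated arrays lay on one side of both unstimulated arrays. That separation was seen for 10.7% of all probe sets in the upward and 11.2% in the downward direction, so on its own it says little. The calls depend on single arrays: leaving out each of the 12 arrays in turn gave 0 to 30 calls, and Ccr1, Ccl7, Ier3 and Sars2 missed the threshold every time. Il4ra, Socs3 and Fcgr2b kept it in 10 of those 12 fits, and Fgl2 and Meg3 in 9. The fit without the 400 min array of replicate 2 made no call, and the one without the unstimulated array of replicate 1 made 30.

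**Figure D1:**
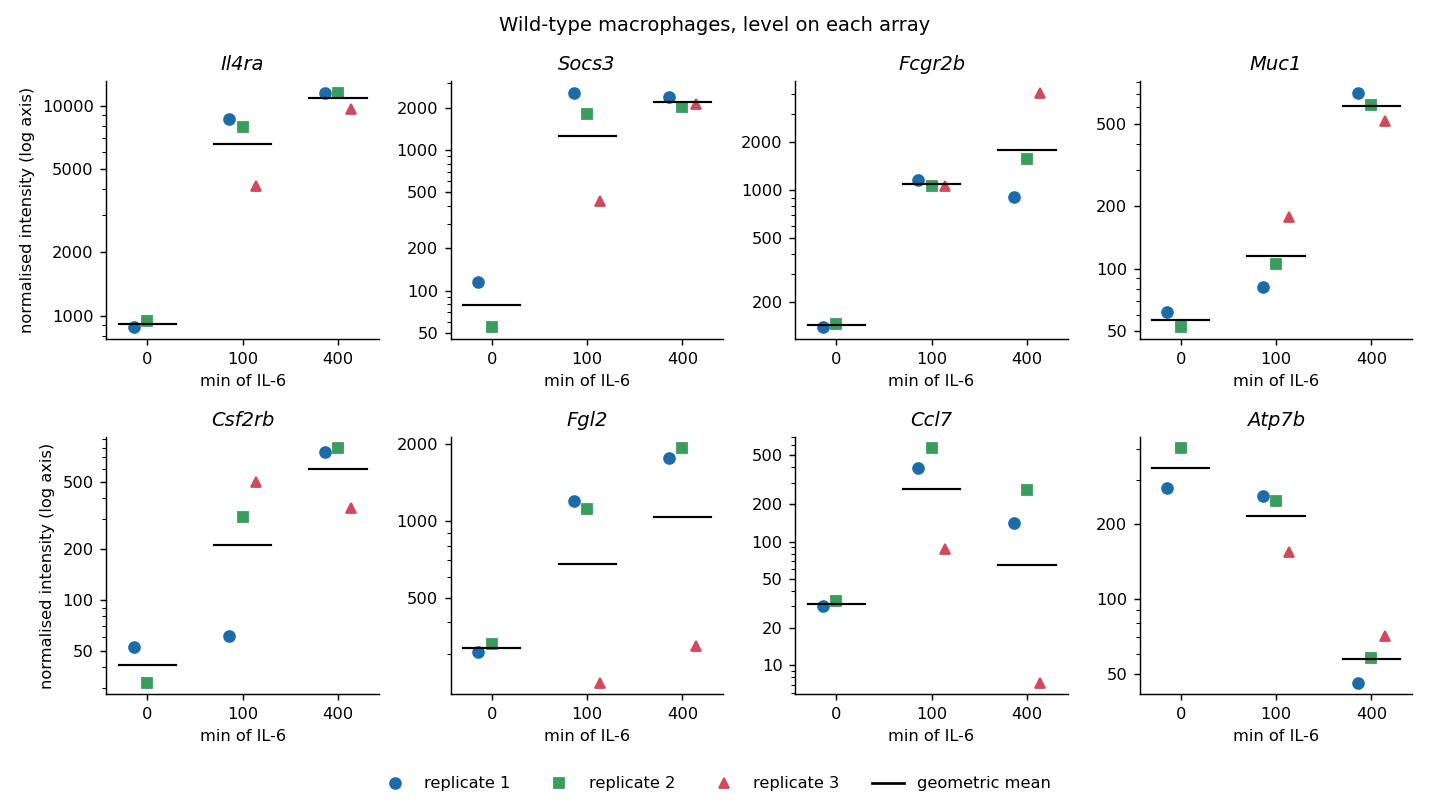
Level of 8 genes in wild-type macrophages before and after 100 and 400 min of IL-6. Each point is 1 array (circle, square and triangle for replicates 1, 2 and 3), the vertical axis is the normalised intensity on a log scale, and the black line is the geometric mean of the group; there is no unstimulated array of replicate 3. Il4ra, Socs3, Fcgr2b, Muc1 and Csf2rb lie above both unstimulated arrays on all 3 arrays at 400 min and Atp7b below, whereas Fgl2 and Ccl7 do so on replicates 1 and 2 and not on replicate 3.

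The array holds a pair of probe sets for Socs3, the feedback inhibitor itself. The first gave intensities of 114.7 and 54.91 without IL-6 and of 2400, 2036 and 2117 after 400 min. All 3 stimulated arrays stood far above both unstimulated ones. The difference was 4.78 (SE 0.99), or 27.5-fold, yet its adjusted p over 17 arrays was 0.222. Within replicates 1 and 2 Socs3 rose by 4.80 (SE 0.40, adjusted p = 0.01), and replicate 3 lay 4.74 above the unstimulated mean. The SE of Socs3 in the fit over 17 arrays is set in part by other groups. Socs3 read 2552, 1809 and 432.4 at 100 min. In SOCS3-/- cells it read 20.59, 23.55 and 16.52 without IL-6 and 66.78, 86.22 and 179.5 at 100 min. In that genotype at 400 min it read 48.6 and 78.54 in replicates 1 and 2 and 902.6 on the array labelled KO 400 min replicate 3. The second gave 180.7 and 80.31, and then 1326, 1105 and 1289 (3.36, SE 0.88, adjusted p = 0.409; within replicates 1 and 2, 3.33, SE 0.55, adjusted p = 0.106). Between 100 and 400 min no difference in Socs3 was called: it was 0.79 (SE 0.89) on the first probe set and 0.45 (SE 0.78) on the second.

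The windows of Socs3 and Fgl2 are shown because they are the genes called upward within replicates 1 and 2 that hold the TTCNNNGAA pattern. The pattern begins 154 bases before the start of Socs3, in the window chr11:117969317-117969616 on the minus strand, and 36 bases before the start of Fgl2, in chr5:21372423-21372722 on the plus strand, both GRCm38.p6. They were 2 of the 8 of these 9 genes that have a window in the table. Of all 27025 genes with a window, 9.55% hold the pattern. The stricter TTCCNGGAA was in none of the 8, against 1.35% of all genes. Capitals mark the pattern.
Socs3: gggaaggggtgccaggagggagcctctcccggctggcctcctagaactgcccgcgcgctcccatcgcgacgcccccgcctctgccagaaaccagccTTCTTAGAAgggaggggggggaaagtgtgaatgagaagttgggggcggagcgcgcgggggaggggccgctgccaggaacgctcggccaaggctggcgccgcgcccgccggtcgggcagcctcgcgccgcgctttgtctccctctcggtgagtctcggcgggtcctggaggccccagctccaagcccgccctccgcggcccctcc
Fgl2: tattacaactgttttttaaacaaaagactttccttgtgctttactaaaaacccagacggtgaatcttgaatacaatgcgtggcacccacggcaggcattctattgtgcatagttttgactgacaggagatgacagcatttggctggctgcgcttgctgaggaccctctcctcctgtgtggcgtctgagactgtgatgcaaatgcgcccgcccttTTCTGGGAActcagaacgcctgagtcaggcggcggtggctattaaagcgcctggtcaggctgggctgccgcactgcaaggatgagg

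Differences in the chains and enzymes of the IL-6 pathway were smaller. None of the 18 tested genes of a list of IL-6 receptor chains, kinases, adaptors and phosphatases was called, and 4 had an unadjusted p under 0.05, all higher, against 3.53% of all probe sets. Their median difference was 0.17, beside -0.01 over all probe sets tested. Il6ra, the IL-6 binding chain, lay at 273.7 and 41.2 unstimulated and then 340, 537.2 and 492.5 at 400 min (2.08, SE 0.60, adjusted p = 0.501). Its 2 unstimulated arrays differed far more from each other than the 3 stimulated ones did. The Il6ra difference was 3.44 without the unstimulated array of replicate 1 and 0.71 without that of replicate 2, so its size turns on 1 array. Ptpn1, a tyrosine phosphatase that acts on JAK kinases, lay at 2379 and 1991 and then at 5435, 5747 and 6186 (1.41, SE 0.35, adjusted p = 0.339). Its stimulated arrays lay close together and apart from the unstimulated ones. Il6st, which encodes gp130, lay at 907.2 and 551 and then at 1312, 1199 and 821.9 on its brighter probe set (0.62, SE 0.51, adjusted p = 0.932), with an overlap between the groups. A second Il6st probe set was 1.67-fold higher over 17 arrays and 2.01-fold higher within replicates 1 and 2, and was called in neither fit. Gab1, an adaptor downstream of gp130, was at 1.07 (SE 0.39) on one probe set and -0.62 (SE 0.74) on another, and neither passed the test.

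Stat3 itself also has a pair of probe sets. The brighter read 1745 and 2060 unstimulated and 3605, 3910 and 3193 at 400 min (0.91, SE 0.28, adjusted p = 0.55), and the other 1384 and 1617, then 2098, 2671 and 2618 (0.71, SE 0.31, adjusted p = 0.76). On both, every stimulated array lay above both unstimulated ones, and neither passed the test. Socs1, which also blocks JAK kinases and is best known as a brake on interferon signalling, lay at 235.8 and 155.8 and then at 140.4, 197.1 and 100.5, with overlapping groups (-0.45, SE 0.52, adjusted p = 0.967). Of the 5 SOCS family genes tested, Socs3 was the 1 with an unadjusted p under 0.05 and a higher level, beside 3.53% of all probe sets.

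Genes known as targets of STAT3 had a median above that of all probe sets. Of 41 tested on a list of such targets, 1 was called over 17 arrays (Il4ra) and 4 within replicates 1 and 2 (Il4ra, Fcgr2b, Ier3 and Fgl2), all higher. Over all probe sets these shares were 0.0101% and 0.142%. The list was chosen with earlier results of these data known, so its counts are not independent support. The list reads Socs3 by its second probe set, which was not called. At an unadjusted p under 0.05, 10 were higher and 0 lower, against 3.53% and 2.74% of all probe sets. The stimulated arrays lay above both unstimulated arrays for 13 and below for 2, beside 10.7% and 11.2% of all probe sets. The median difference was 0.47 over 17 arrays and 0.47 within replicates 1 and 2. On replicate 3 alone it was 0.27. Leaving out 1 array moved the 17-array median between 0.24 and 0.60.

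Several of these targets are kinases, growth regulators or transcription factors. Pim1, a survival kinase, lay at 1105 and 1364 unstimulated and then 2424, 2702 and 2499 at 400 min (1.05, SE 0.25, adjusted p = 0.266), and a dimmer Pim1 probe set was at 0.35 (SE 1.01). Gadd45g, a stress-induced growth regulator, lay at 203 and 274.1 and then at 842.2, 683.9 and 1114 (1.87, SE 0.44, adjusted p = 0.266). In both genes the 3 replicates lay close together at 400 min, and neither was called. Ier3, an early response gene that affects cell survival, lay at 1201 and 1004 and then at 3944, 4261 and 2262. It rose within replicates 1 and 2 by 1.90 (SE 0.25, adjusted p = 0.0432) and was at 1.62 (SE 0.44, adjusted p = 0.448) over 17 arrays. Bcl3, a nuclear partner of NF-kappaB, lay at 717.5 and 748.1 and then at 2066, 2559 and 1164 (1.32, SE 0.48, adjusted p = 0.659). For Ier3 and Bcl3 replicate 3 was the lowest of the stimulated arrays, still above both unstimulated ones.

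Several genes of cell-surface receptors are described together here. Fcgr2b encodes the inhibitory Fc receptor for IgG. It lay at 138 and 145.5 unstimulated and then 905.1, 1575 and 4097 at 400 min. The stimulated arrays spread widely, with replicate 3 the highest, and all 3 were far above the unstimulated pair. In unstimulated SOCS3-/- cells replicate 3 was also the highest, at 657.9 beside 240.4 and 199.5. The SOCS3+/+ difference over 17 arrays was 3.67 (SE 0.57, adjusted p = 0.0734), and with replicate 3 as a batch block Fcgr2b was called at 3.39 (SE 0.44, adjusted p = 0.0144). Within replicates 1 and 2 Fcgr2b rose by 3.07 (SE 0.30, adjusted p = 0.0139), or 8.42-fold. Its probe set carries the suffix that marks probes shared by related transcripts, so a close relative may add to it. Csf2rb, the signalling chain of the receptors for GM-CSF, interleukin 3 and interleukin 5, lay at 52.25 and 32.2 and then at 755.4, 793.4 and 352.2. Its difference was 3.86 (SE 0.75, adjusted p = 0.163) over 17 arrays and 4.24 (SE 0.70, adjusted p = 0.106) within replicates 1 and 2. Its close relative Csf2rb2 had a mean of 1108 unstimulated and 1890 at 400 min (0.73, SE 0.30, adjusted p = 0.734), and near-identical sequence could add to either.

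Il13ra1, which pairs with the Il4ra chain, lay at 33.83 and 20.76 and then at 132.4, 96.8 and 120 (2.08, SE 0.48, adjusted p = 0.266). One unstimulated value lay below the floor of 22.01 that was set before taking logs, so this difference understates the gap. Ccr1, a receptor for several CC chemokines, lay at 168 and 168.1 and then at 482.8, 579.3 and 1550. It rose within replicates 1 and 2 by 1.65 (SE 0.20, adjusted p = 0.0389) and was at 2.17 (SE 0.54, adjusted p = 0.344) over 17 arrays. As with Fcgr2b, replicate 3 was the highest array. Of the 7 tested Fc receptor genes Fcgr2b was the 1 called within replicates 1 and 2, beside 0.142% of all probe sets. Fcgr1, the high-affinity activating receptor, lay at 4144 and 4598 and then at 7649, 10820 and 5265 (0.80, SE 0.42, adjusted p = 0.827), and was at 1.34 (SE 0.47, adjusted p = 0.638) on a second probe set.

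Muc1 stood out for its timing. It encodes a membrane mucin and lay at 62.06 and 52.34 unstimulated, at 81.44, 105.5 and 177 at 100 min, and at 706.3, 616.1 and 516.5 at 400 min. The 400 min arrays lay close together and well above every array at 100 min. Muc1 rose within replicates 1 and 2 by 3.53 (SE 0.38, adjusted p = 0.0192), or 11.6-fold, and was at 3.42 (SE 0.62, adjusted p = 0.15) over 17 arrays. From 100 to 400 min it was at 2.40 (SE 0.56, adjusted p = 0.339) and rose within replicates 1 and 2 by 2.83 (adjusted p = 0.0451). That difference uses no unstimulated array, but its SE draws on all groups in the fit. Klf3, a transcription factor of the Kruppel-like family, had a like course on 1 probe set: 194.2 and 95.07 unstimulated, 151.2, 163.5 and 156.5 at 100 min, and 469.5, 397.9 and 376.7 at 400 min. Its difference was 1.60 (SE 0.29, adjusted p = 0.15). A second Klf3 probe set did not share this course: it was at 0.80 (SE 0.32) at 100 min and 0.94 (SE 0.32) at 400 min. From 100 to 400 min that probe set was at 0.14 (SE 0.28). Ctsc, a lysosomal protease that activates other proteases, lay at 2997 and 2088 and then at 6002, 6126 and 5135, 2.29-fold apart with an adjusted p of 0.23, and 2 dimmer probe sets of it were at 0.84 (SE 1.01) and 0.63 (SE 0.78).

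For 2 secreted products, replicate 3 did not follow the others. Fgl2, an enzyme and immune regulator related to fibrinogen, lay at 306.1 and 327.6 unstimulated and then 1765, 1927 and 322.8 at 400 min. It rose within replicates 1 and 2 by 2.54 (SE 0.23, adjusted p = 0.0137), or 5.82-fold, while replicate 3 sat at the unstimulated level. Ccl7, a chemokine that draws monocytes, lay at 30.2 and 32.94 and then at 142.6, 262.3 and 7.235. It rose within replicates 1 and 2 by 2.62 (SE 0.33, adjusted p = 0.0402), while replicate 3 was below the floor. At 100 min the array of replicate 3 was also the lowest for both: Fgl2 read 1193, 1118 and 231.7, and Ccl7 read 393.9, 568.4 and 86.84. The 17-array differences were 1.70 (SE 0.83, adjusted p = 0.802) for Fgl2 and 1.57 (SE 1.17, adjusted p = 0.93) for Ccl7. With replicate 3 as a batch block, Ccl7 was called at 2.41 (SE 0.31, adjusted p = 0.0144). Of 27 tested chemokines and receptors, Ccr1 and Ccl7 were called within replicates 1 and 2, beside 0.142% of all probe sets, and both missed the threshold in each of the 12 fits with 1 array left out. The median of that list was -0.01. Ccl4, an attractant of T cells and monocytes, lay at 257.2 and 243.6 and then at 717.7, 554.5 and 309.2 (0.99, SE 0.36, adjusted p = 0.653).

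**Figure D2:**
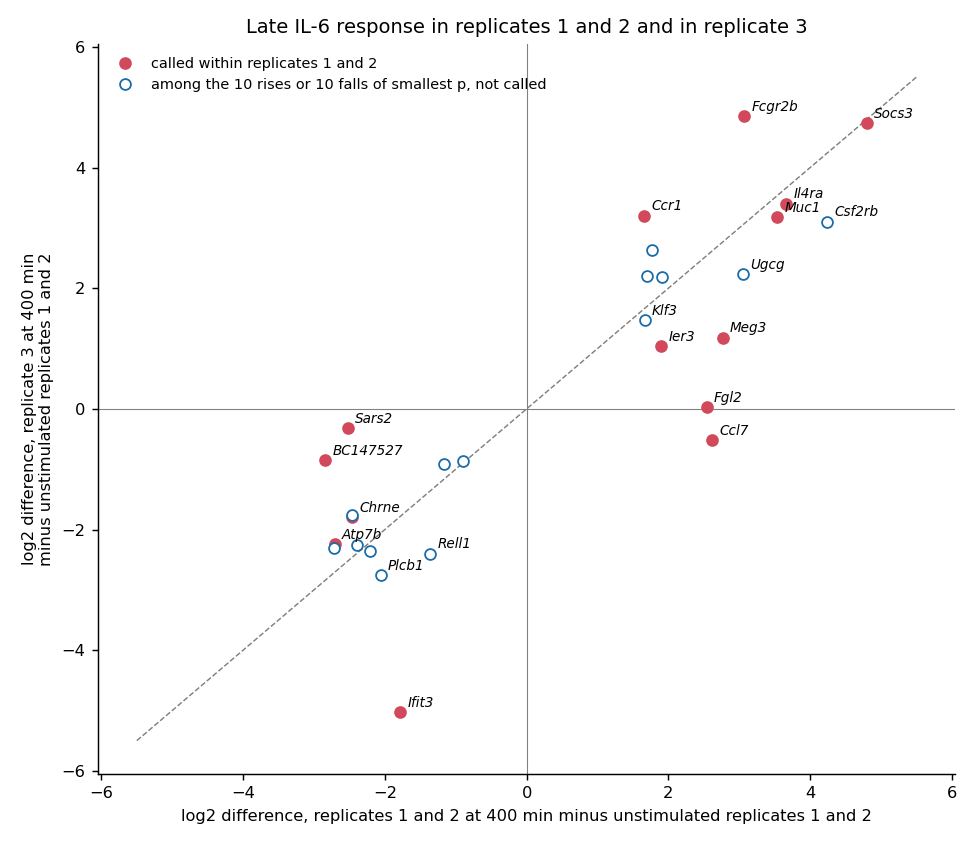
Late response of the 14 probe sets called within replicates 1 and 2 (filled) and of the others among the 10 rises and 10 falls of smallest p over 17 arrays (open). The horizontal axis is the log2 difference of replicates 1 and 2 at 400 min from the 2 unstimulated arrays, the vertical axis that of replicate 3 from the same arrays, and the dashed line marks equal values. The open points were chosen with replicate 3 in the fit; among the filled ones, Socs3, Il4ra and Muc1 lie near the line, Fcgr2b, Ccr1 and Ifit3 are farther from 0 in replicate 3, and Fgl2, Ccl7, Sars2 and BC147527 lie near 0 there.

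Among the genes that fell within replicates 1 and 2, 1 came close to the threshold over 17 arrays as well. Atp7b, a copper-transporting ATPase, lay at 279.6 and 404.1 unstimulated and then 45.95, 57.76 and 71 at 400 min. All 3 stimulated arrays lay far below both unstimulated ones. The difference was -2.55 (SE 0.41, adjusted p = 0.0734) over 17 arrays, and within replicates 1 and 2 it fell by 2.71 (SE 0.35, adjusted p = 0.042). Chrne, a subunit of the muscle acetylcholine receptor, lay at 189 and 152.1 and then at 27.39, 34.67 and 48.87, and fell within replicates 1 and 2 by 2.46 (SE 0.27, adjusted p = 0.0197). A second Chrne probe set was at -0.09 (SE 0.48), so the 2 disagree. Sars2, the seryl-tRNA synthetase of mitochondria, lay at 183 and 178.6 and then at 37.39, 26.6 and 144.4, and BC147527 at 191.7 and 179.8 and then at 20.27, 30.65 and 103.2. Both fell within replicates 1 and 2, by 2.52 (SE 0.32, adjusted p = 0.0402) and 2.84 (SE 0.29, adjusted p = 0.0173), and replicate 3 was well above the other stimulated arrays. Unstimulated SOCS3-/- cells read 41.33, 25.49 and 106.2 for BC147527, near the stimulated SOCS3+/+ arrays, so this low level was also seen without IL-6. The BC147527 probe set carries a suffix that marks probes shared by related transcripts, and 2 further Sars2 probe sets were at -0.76 (SE 0.75) and -0.25 (SE 0.23).

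Among the 10 named falls of smallest p over 17 arrays were a few bright genes, none of them called. Degs1, an enzyme of ceramide synthesis, lay at 2780 and 2743 and then at 1163, 1300 and 1470 (-1.08, SE 0.29, adjusted p = 0.426). Rell1, a membrane protein, lay at 1333 and 1074 and then at 366.6, 594.6 and 226.3 (-1.71, SE 0.39, adjusted p = 0.266). Nagk, a kinase of N-acetylglucosamine, lay at 1267 and 1271 and then at 594.2, 781.3 and 697.5 (-0.89, SE 0.22, adjusted p = 0.364). In all 3 genes every stimulated array lay below both unstimulated ones. Lpl, a lipoprotein lipase that macrophages release, was bright at 12980 and 12300 and lay at 8382, 8627 and 4431 at 400 min (-0.89, SE 0.28, adjusted p = 0.586). It was the 1 of 24 genes of cholesterol handling with an unadjusted p under 0.05, beside 2.74% of all probe sets, and a second Lpl probe set was at -0.47 (SE 0.56) with overlapping groups. The other falls of smallest p were dimmer. Foxq1, a forkhead transcription factor, lay at 132 and 169.3 and then at 21.16, 23.55 and 30.35 (-2.58, SE 0.59, adjusted p = 0.266). Igfbp2, which binds insulin-like growth factors, lay at 110.8 and 214.9 and then at 43.74, 25.18 and 30.08 (-2.26, SE 0.54, adjusted p = 0.294). Plcb1, a phospholipase, was at -2.29 (SE 0.53) on 1 probe set, which lay at 179.3 and 185.2 and then at 34.6, 55.46 and 27.03, and at 0.20 (SE 0.98) and 0.12 (SE 0.37) on 2 others.

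For some genes of small p, the unstimulated SOCS3+/+ arrays differed from the unstimulated SOCS3-/- arrays as well. Meg3, a noncoding RNA, lay at 31.16 and 19.99 unstimulated and then 162.4, 195.2 and 59.31 at 400 min, and rose within replicates 1 and 2 by 2.77 (SE 0.26, adjusted p = 0.0137). Unstimulated SOCS3-/- cells read 129.3, 107.9 and 139.3 for Meg3. Ugcg, which makes glucosylceramide, lay at 19.11 and 15.15 and then at 181.6, 183.1 and 103.3 (2.78, SE 0.56, adjusted p = 0.216), beside 136.4, 39.76 and 206.8 in unstimulated SOCS3-/- cells. Cdkn1b, an inhibitor of the cell cycle, lay at 135.7 and 135.8 and then at 14.98, 27.58 and 40.29 (-2.23, SE 0.42, adjusted p = 0.159), beside 42.75, 56.64 and 36.79 in unstimulated SOCS3-/- cells. On these 3 probe sets the unstimulated SOCS3-/- arrays lay mostly near the stimulated SOCS3+/+ ones. A second, brighter Ugcg probe set had overlapping groups in SOCS3+/+ cells: it lay at 238.3 and 75.04 and then at 235, 259.7 and 441.9 (1.17, SE 0.49), with 186.3, 254.9 and 211.7 in unstimulated SOCS3-/- cells. A second Cdkn1b probe set was at -0.66 (SE 0.75) with overlapping groups. The unstimulated SOCS3-/- arrays also lay mostly near the stimulated SOCS3+/+ ones for 3 dim genes among the 10 rises of smallest p: Ankrd49 (1.86, SE 0.35, adjusted p = 0.159), Mrm3 (2.06, SE 0.43, adjusted p = 0.222) and Mrpl14, which encodes a mitochondrial ribosomal protein (2.00, SE 0.39, adjusted p = 0.163). A second Mrpl14 probe set went the other way, at -0.71 (SE 1.03) over 17 arrays and -1.65 (SE 0.40) within replicates 1 and 2, and a second Mrm3 probe set was at 0.11 (SE 0.83). Ankrd49, for example, lay at 65.36 and 44.33 and then at 181.8, 166.8 and 246.8, beside 164, 191.7 and 152 in unstimulated SOCS3-/- cells. Spib, a transcription factor known from B cells and plasmacytoid dendritic cells, lay at 243.7 and 668.2 and then at 76.38, 77.84 and 84.28 (-2.35, SE 0.42, adjusted p = 0.15), with 77.07, 103.5 and 71.32 in unstimulated SOCS3-/- cells, and a second Spib probe set was at 0.32 (SE 0.41). The summed level of 12 measured B cell markers was 7840 and 8988 unstimulated and 5335, 5792 and 4208 at 400 min, without overlap. Most of it was Ighm, with a mean of 5498 and then 2471, whereas Cd79a had a mean of 91.71 and then 217.7. None of the 11 tested markers was called, 1 was separated upward and 1 downward (beside 10.7% and 11.2% of all probe sets), none was at the floor on all 5 arrays, and their part in the Spib value was not tested. In a bulk sample, fewer cells of a type and less RNA per cell cannot be told apart.

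Interferon-stimulated genes had a median below that of all probe sets after 400 min. Of 34 tested genes known to respond to type I interferon, limma called 0 over 17 arrays, and 1, Ifit3, fell within replicates 1 and 2. Over all probe sets 0.0101% and 0.142% were called in these fits. In 16 of the 34 all 3 stimulated arrays lay below both unstimulated arrays, and in 2 above, beside 11.2% and 10.7% of all probe sets. At an unadjusted p under 0.05, 3 were lower and 1 higher, beside 2.74% and 3.53%. This list was also chosen with earlier results of these data known, so its counts are not independent support. The median difference was -0.50 over 17 arrays, -0.21 within replicates 1 and 2, and -0.79 on replicate 3, so its size moves with that array. Ifit3, an antiviral protein, lay at 1203 and 1355 unstimulated and then 333.7, 412.1 and 38.99 at 400 min. It fell within replicates 1 and 2 by 1.78 (SE 0.22, adjusted p = 0.0378), or 3.44-fold, and was at -2.87 (SE 0.94, adjusted p = 0.597) over 17 arrays. Usp18, a protease that removes ISG15 and dampens interferon signalling, lay at 993.3 and 993.3 and then at 556.1, 425.5 and 253.8 (-1.34, SE 0.45, adjusted p = 0.597). In both genes replicate 3 was the lowest array. Adar, an RNA editing enzyme, was the 1 higher, with unstimulated arrays far apart at 248.7 and 52.51 and stimulated ones at 424.2, 533.5 and 453.5 (2.04, SE 0.74, adjusted p = 0.653), and a second Adar probe set was at 0.23 (SE 0.84) with overlapping groups.

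The window of Ifit3 is shown as that of the called interferon-stimulated gene. It lies at chr19:34583279-34583578 on the plus strand of GRCm38.p6 and holds the interferon response pattern at 2 places, which begin 156 and 122 bases before the start and are read here on the opposite strand, in capitals. Of all genes with a window, 3.99% hold the pattern. Among the 5 genes called lower within replicates 1 and 2, it was also in the window of BC147527.
Ifit3: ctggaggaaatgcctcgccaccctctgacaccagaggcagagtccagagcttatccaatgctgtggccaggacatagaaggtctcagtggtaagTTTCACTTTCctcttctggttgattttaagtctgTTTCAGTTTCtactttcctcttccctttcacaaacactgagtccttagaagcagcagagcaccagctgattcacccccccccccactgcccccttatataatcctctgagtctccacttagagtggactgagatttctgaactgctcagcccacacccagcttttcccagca

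The late time point was also compared with the early one. Its difference uses 3 arrays against 3 and no unstimulated array, but its spread comes from all groups in the fit. Over 17 arrays limma called 0 probe sets, with 622 at an unadjusted p under 0.05 and a smallest adjusted p of 0.0518. Within replicates 1 and 2, 16 were called, 0.162% of those tested: 13 lower at 400 min and 3 higher (Muc1, Cd99 and Pdia6). Of the 13, 11 have 1 gene symbol: Gbp2b, Gbp3, Gbp7, Igtp, Irgm1, Ifi47, Ifit1, Ifit2, Ifit3, Chrne and Pecam1.

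Interferon-inducible GTPases, large defence proteins that attack the vacuoles of intracellular pathogens, made up 6 of these 11. Of the 9 tested, those 6 fell from 100 to 400 min within replicates 1 and 2 (Gbp2b, Gbp3, Gbp7, Igtp, Irgm1 and Ifi47). Over 17 arrays 7 of the 9 were lower at an unadjusted p under 0.05, beside 3.13% of all probe sets. This list too was chosen with earlier results of these data known, so its counts are not independent support. The median of the 9 was -2.05 from 100 to 400 min. Against unstimulated cells it was 0.02 at 400 min, where limma called 0 of the 9 (1 at an unadjusted p under 0.05), and 1.98 at 100 min; these medians share the unstimulated arrays.

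Gbp7 lay at 439.5 and 408.3 unstimulated, at 3539, 3551 and 791.8 at 100 min, and at 395.3, 434.2 and 575.3 at 400 min. The 400 min arrays lay around the unstimulated ones, with replicate 3 above both. Its fall from 100 to 400 min within replicates 1 and 2 was by 3.10 (SE 0.20, adjusted p = 0.00168), and over 17 arrays the difference was -2.22 (SE 0.48, adjusted p = 0.259). Irgm1 lay at 617.8 and 522.1, then at 1635, 2188 and 962, and then at 307.6, 400.3 and 377.1. At 400 min all 3 arrays were below both unstimulated arrays (-0.66, SE 0.36, adjusted p = 0.846) and far below the 100 min arrays (-2.07, SE 0.32, adjusted p = 0.0518). Leaving out 1 array at a time gave 0 to 18 calls in this comparison over 17 arrays, 18 without the 100 min array of replicate 3, which lay farthest from the others on the first principal component at 58.08. Iigp1 lay at 24.89 and 16.14, then at 760.3, 517.2 and 338.8, and then at 159.9, 21.94 and 38.44 (-3.32 from 100 min, SE 0.60, adjusted p = 0.0999). Gbp2 had the smallest difference from 100 min of the 9 (-0.89, SE 0.44, adjusted p = 0.815): it lay at 403.8 and 330.6, then at 2162, 1770 and 775, and then at 893.5, 946.7 and 546. At 400 min Gbp2 was still above both unstimulated arrays on all 3 arrays (1.08, SE 0.49, adjusted p = 0.786).

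**Figure D3:**
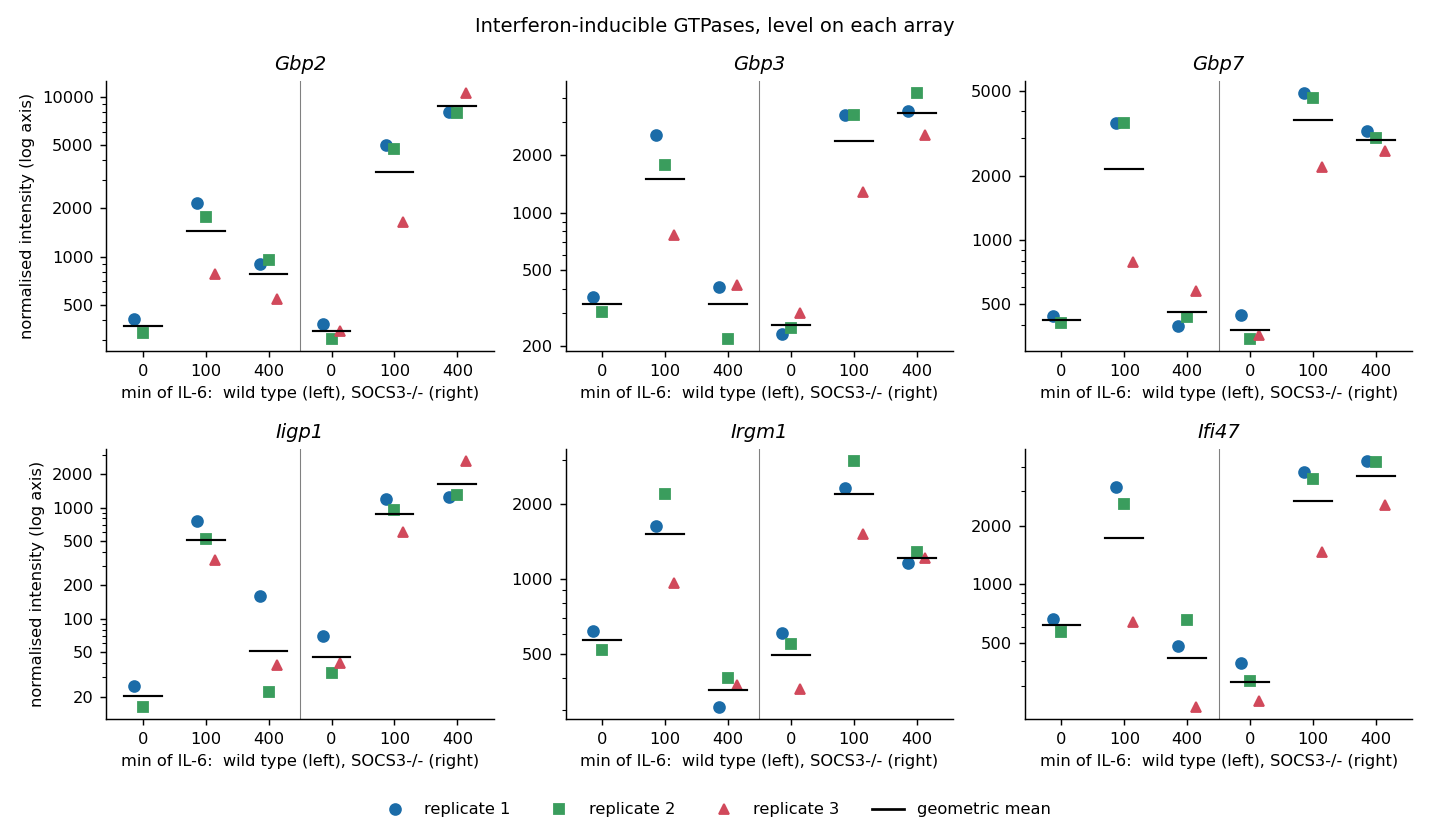
Level of 6 interferon-inducible GTPases on each array of wild-type cells (left of the line) and SOCS3-/- cells (right) before and after 100 and 400 min of IL-6. Each point is 1 array by replicate number, the vertical axis is the normalised intensity on a log scale, and black lines are geometric means. In wild-type cells the arrays at 400 min lie below those of the same replicate at 100 min in all 6 genes. In SOCS3-/- replicates 1 and 2 Gbp7 and Irgm1 are also lower at 400 min, whereas Gbp2, Gbp3, Iigp1 and Ifi47 are higher. There Gbp7 goes from 4865 and 4616 to 3236 and 3020, Irgm1 from 2311 and 2961 to 1157 and 1280. Gbp2 goes from 4992 and 4688 to 8024 and 7891. On the array labelled KO 400 min replicate 3, where Socs3 goes against the label, Gbp7 is at 2602 and Gbp2 at 10520.

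The response at 400 min was set against that of SOCS3-/- cells by an interaction test, which asks whether the change from unstimulated differs between the genotypes. On 1 of its arrays, labelled KO 400 min replicate 3, Socs3 goes against the label. It read 902.6, within the range of stimulated SOCS3+/+ arrays at 100 min. Other genes did not all share this. Il4ra read 21530 and Gbp2 10520 there, beside 26430 and 25020, and 8024 and 7891, in SOCS3-/- replicates 1 and 2 at 400 min. Muc1 read 104.3, far below the 483.2 and 710.7 of those 2 arrays. The cause was not tested. Over 17 arrays limma called 0 probe sets, with 531 at an unadjusted p under 0.05 and a smallest adjusted p of 0.1. Without the array labelled KO 400 min replicate 3 it also called 0, with 636 at an unadjusted p under 0.05, and without the SOCS3+/+ 100 min array of replicate 3 it called 8. Within replicates 1 and 2, which leave out both of these arrays, 11 were called, 0.111% of those tested, and in all 11 the signed difference between 400 min and unstimulated cells was higher in SOCS3-/- than in SOCS3+/+ cells. That is not a larger response in each gene: Chrne fell in SOCS3+/+ cells and lay at 80.35 and 104.9 and then at 144.4 and 115.1 in SOCS3-/- replicates 1 and 2. The 10 with 1 gene symbol were Gbp2, Gbp2b, Gbp3, Gbp7, Ifi47, Ifit2, Ccl2, Ccl7, Arg1 and Chrne. Arg1 is the arginine-degrading enzyme of alternative activation.

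All 9 GTPases had a higher signed difference in SOCS3-/- cells at an unadjusted p under 0.05, over 17 arrays and also without the array labelled KO 400 min replicate 3, and 5 of the 9 were called within replicates 1 and 2. The background for that count over 17 arrays was 2.82%. As the list was chosen with earlier results of these data known, these counts are not independent support. Gbp2 was at 1.08 (SE 0.49) in SOCS3+/+ and 4.68 (SE 0.44) in SOCS3-/- cells. The difference of these responses was 3.60 (SE 0.66, adjusted p = 0.181) over 17 arrays, 3.47 (SE 0.71, adjusted p = 0.213) without that array, and 3.22 (SE 0.31, adjusted p = 0.014) within replicates 1 and 2. Of the 34 type I interferon genes, 12 had a higher signed difference in SOCS3-/- cells at an unadjusted p under 0.05, and the median difference between the responses was 1.17; without that array, 11 and 1.16. Of the 41 STAT3 targets the count was 7 and the median 0.63, and without that array 9 and 0.72. Over all probe sets the median was -0.03.

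For the receptor genes that follow, this test made no call. Il4ra was at 3.58 (SE 0.39) in SOCS3+/+ and 4.36 (SE 0.35) in SOCS3-/- cells (difference 0.78, SE 0.52, unadjusted p = 0.159; 0.87 without the array labelled KO 400 min replicate 3). Fcgr2b was at 3.67 (SE 0.57) and 4.92 (SE 0.51), with a difference of 1.25 (SE 0.76, unadjusted p = 0.121; 0.99 without that array). Within replicates 1 and 2, which leave out the highest SOCS3+/+ array, the Fcgr2b difference was 2.11 (SE 0.42, unadjusted p = 0.00109, adjusted p = 0.172). Csf2rb was at 3.86 (SE 0.75) and 3.20 (SE 0.67), with a difference of -0.66 (SE 1.01, unadjusted p = 0.523; -1.01 without that array). With SEs of this size, a gap of the order of 1 on the log2 scale could not be resolved. Fgl2 was at 1.70 (SE 0.83) and 4.77 (SE 0.74), a difference of 3.07 (SE 1.11, unadjusted p = 0.0158; 3.35 without that array). Socs1 was at -0.45 (SE 0.52) and 1.56 (SE 0.46), a difference of 2.01 (SE 0.69, unadjusted p = 0.0121; 2.00 without that array). Atp7b went the other way, at -2.55 (SE 0.41) in SOCS3+/+ and -0.08 (SE 0.36) in SOCS3-/- cells, where it read 179.7, 100.1 and 215.3 unstimulated, 214.6 and 153 in replicates 1 and 2 at 400 min, and 100.9 on the array labelled KO 400 min replicate 3. Its difference of responses was 2.48 (SE 0.54, unadjusted p = 0.00048; 2.76 without that array). None of these 6 differences was called, over 17 arrays or within replicates 1 and 2.

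**Figure D4:**
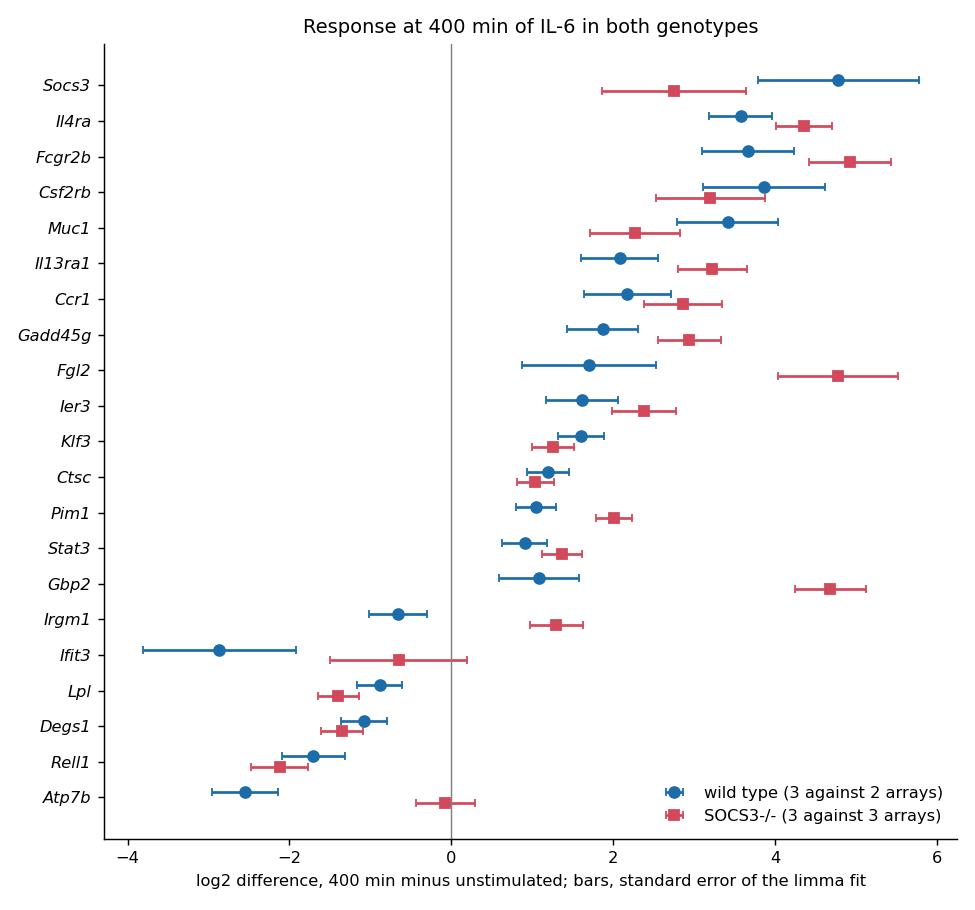
Response of 21 genes at 400 min of IL-6 in wild-type cells (circles, 3 against 2 arrays) and SOCS3-/- cells (squares, 3 against 3 arrays), as log2 differences from unstimulated cells with bars of 1 SE of the limma fit over 17 arrays. For Il4ra, Csf2rb, Klf3 and Ctsc the 2 genotypes lie within about 1 of each other, whereas Gbp2 and Fgl2 lie farther right in SOCS3-/- cells; the SOCS3-/- value of Socs3 (2.75) includes the array on which Socs3 read 902.6.

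Several other gene groups had no called member over 17 arrays. The chemokine, MHC and peptide processing, lysosome and phagocytosis, cytokine and cell cycle lists had medians of -0.01, 0.06, -0.10, 0.11 and -0.04. H2-DMb1, which helps load peptides on MHC class II, lay at 371.4 and 352 and then at 685.6, 654 and 1176 (1.16, SE 0.40, adjusted p = 0.617). C5ar1, the receptor for complement fragment C5a, lay at 2209 and 1889 and then at 3582, 3841 and 3331 (0.81, SE 0.30, adjusted p = 0.686). Id1, a partner that blocks transcription factors, lay at 22.1 and 19.16 and then at 46.59, 53.37 and 648.8 (2.41, SE 1.06, adjusted p = 0.776), with a difference of 1.18 within replicates 1 and 2 and 4.88 on replicate 3. Cebpb, a myeloid transcription factor, lay at 1785 and 1984 and then at 2727, 2479 and 4377 (0.72, SE 0.33, adjusted p = 0.791). Of 23 tested genes of the C/EBP, Id and myeloid factor list, 3 were higher and 1, Gfi1, lower at an unadjusted p under 0.05, beside 3.53% and 2.74% of all probe sets.

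Markers of the cells themselves gave no call. None of 18 tested macrophage markers had an unadjusted p under 0.05 in limma, and their summed level was 207900 and 186800 unstimulated and 180700, 181900 and 191900 at 400 min. Of 12 neutrophil and precursor markers, Ly6g and Lcn2 were lower at an unadjusted p under 0.05, beside 2.74% of all probe sets. The summed level of that list, over 16 measured, was 2829 and 3973 and then 2757, 3308 and 2072, with overlapping groups. The summed level of cell cycle genes was highest on replicate 3, at 57120, beside 47380 and 45670 on the other stimulated and 49880 and 48050 on the unstimulated arrays. In unstimulated SOCS3-/- cells this sum was 90820 on replicate 3, beside 51900 and 50240 on replicates 1 and 2. The part of the cell cycle genes in the values of replicate 3 was not tested.

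**Figure D5:**
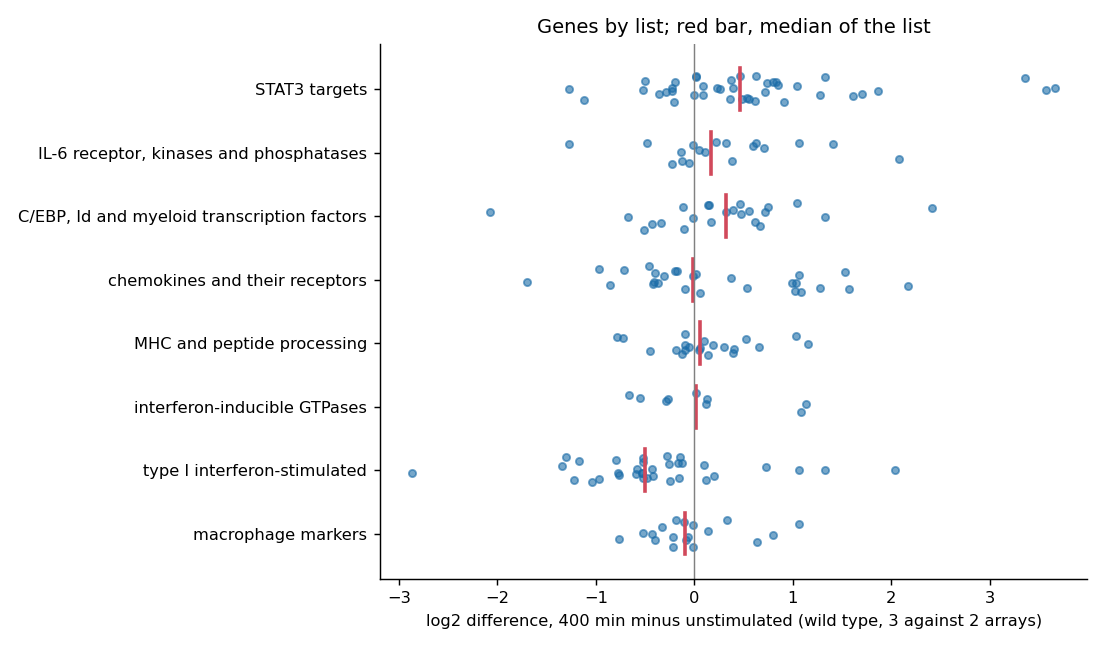
Log2 difference between 400 min and unstimulated wild-type macrophages for the genes of 8 lists, over 3 against 2 arrays. Each point is a gene, placed at random in height, and the red bar is the median of its list. The STAT3 targets have a median of 0.47 with 3 genes above 3 (Il4ra, Fcgr2b and Socs3), the type I interferon genes have a median of -0.50, and the interferon-inducible GTPases lie around 0.02.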

How the data were processed

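RNA of 17 macrophage samples was measured on 1-colour arrays of 12488 probe sets, 66 of them controls. The deposited table gives 1 linear intensity per probe set and array. How it was scaled and background-corrected, and with which software, is not given in the sources used here. It has no detection calls. Precision is limited by the number of arrays. The deposited medians differed by 0.401 on the log2 scale, above a limit of 0.3, so the intensities were quantile normalised, raised to a minimum of 22.01 (percentile 10 over the whole table), called the floor, and log2 transformed. A difference that involves values at the floor understates the gap. Tests ran on the 9871 probe sets brighter than percentile 40 of an array on 2 or more arrays. Platform annotation gave 1 symbol to 10855 probe sets, several to 396 and none to 1237. Only probe sets with 1 symbol are named.

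Tests used limma 3.58.1 under R 4.3.3, 2-sided, with 1 mean per group over 17 arrays (residual degrees of freedom 11, prior 2.6), and again over the 12 arrays of replicates 1 and 2 (6 and 2.01). Benjamini-Hochberg adjustment of p ran over all 9871 probe sets, and a call is an adjusted p under 0.05. The code was tested on simulated data. Lists hold 1 probe set per gene, the one with the highest mean. Genes with 1 symbol were named by rule: Socs3, Stat3, Il6ra, Il6st, Socs1 and Il4ra, the calls of either fit, the 10 rises and 10 falls of smallest p, and up to 4 members of smallest p of each list other than the markers. The GTPases, the calls against 100 min and SOCS3-/- cells, and single marker genes were named after their values were seen. The members and the lists were chosen with earlier results of these data known. Alternatives were the normalisation, floor, filter, prior, blocks, samples fitted and each array left out.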

Additional observations from a re-analysis of the deposited data

How the results depend on the processing

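The counts of calls depended strongly on the settings, and the directions of the named genes that were rerun far less. For 400 min against unstimulated over 17 arrays, 1 call became 2 with the floor at the 25th percentile, 2 without the filter, 3 with the filter at the array median, 8 with a trended and robust prior, 0 with the 2 groups fitted alone (606 at an unadjusted p under 0.05 in limma) and 14 within replicates 1 and 2. Leaving out 1 array gave 0 (without unstimulated replicate 2) to 16 calls (without unstimulated replicate 1). For the 14 calls within replicates 1 and 2, the deposited values without normalisation gave 7, the trended and robust prior 108, the 2 groups alone 0 (734 unadjusted), and leaving out 1 array 0 to 30. Normalising and filtering over those 12 arrays alone, chosen after seeing the data, gave 16. For 400 against 100 min, 0 calls became 9 with the trended and robust prior and 16 within replicates 1 and 2, and leaving out 1 array gave 0 to 18. For the difference between genotypes, 0 became 3 with the higher floor, 3 without the filter, 8 with the trended and robust prior, 5 with only the groups compared and 11 within replicates 1 and 2, and leaving out 1 array gave 0 to 8. Replicates 1 and 2 showed little pairing by number: the differences between them in unstimulated and 400 min cells correlated at 0.039. That value does not cover replicate 3, whose arrays mostly stood apart on the first principal component. With the replicate number as a block, the calls were 3 (Il4ra, Fcgr2b and Ccl7) over 17 arrays, 4 within replicates 1 and 2 (Il4ra, Meg3, Socs3 and Fgl2), 5 for 400 against 100 min and 4 between genotypes. With replicate 3 alone as a block they were 3, 7 and 5 in the comparisons over 17 arrays. Socs1 within replicates 1 and 2 turned from -0.20 to 0.094 without unstimulated replicate 1 and 0.040 without 400 min replicate 1, and its leave-out values ran from -0.503 to 0.094. The reruns covered genes named by rule that had an unadjusted p under 0.05 in limma over 17 arrays, were called or were always named. They also covered the GTPases Gbp2, Irgm1, Iigp1 and Ifi47. No other direction turned among these genes against unstimulated cells. The other named genes were not rerun. The cause of these shifts was not tested. Of 912 values of the genes rerun under other settings, 836 kept their direction and side of the threshold, as did 1388 of 1505 with 1 array left out. No detection calls limit what dim probe sets can show.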
